A study of Mus musculus with 10 samples.

Results

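Chemokines and chemokine receptors were examined in spinal cord RNA of SOD1 G93A and wild type (WT) mice, as genes whose symbols name them as chemokine ligands of the CC, CXC, C or CX3C class, as typical receptors or as atypical receptors. Of the 25232 genes of the deposited table, 63 carried such a symbol, and the 54 with a mean level above 0 were taken as members. These were 34 ligands and 20 receptors. The fractalkine receptor Cx3cr1 and the platelet chemokines Pf4 and Ppbp belong to the same family but lie outside this choice by symbol, and their levels are given beside the members where they bear on them.

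RNA-seq had been carried out on 5 SOD1 G93A females and 5 WT females, all aged 90 days, an early symptomatic stage in this model. Many copies of human SOD1 with the G93A mutation are present in the transgenic line, B6.Cg-Tg(SOD1-G93A)1Gur/J, under the human SOD1 promoter, which is active in many cell types. WT animals were littermates, and both groups were labelled as C57BL/6, which the methods give as C57BL/6J. The labels name the spinal cord and the methods its lumbar region. The table gives 1 base mean per gene, which is the authors' mean over all 10 libraries of counts divided by size factors, and it pools both genotypes. All levels below are therefore pooled over SOD1 G93A and WT mice. No spread between mice and no comparison of genotypes were computed from them.

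Chemokines are small secreted proteins that guide the movement of cells, and they signal through receptors that pass the membrane several times and couple to inhibitory G proteins. They are classed by the spacing of the first cysteines of the mature protein. Atypical receptors bind chemokines without coupling to G proteins and take them up, transport them or hold them. In the nervous system, Cx3cl1 is made mainly by neurons and its receptor is found on microglia, whereas Cxcl12 and Cxcr4 guide migrating precursors and leukocytes.

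The sequence around the cysteine motif is shown for 7 ligands, because it defines the classes that the symbols name. The levels below were grouped by symbol. Each line gives coding bases from GENCODE M21 on GRCm38, the build also named mm10, and the capitals mark the cysteine codons.
Cx3cl1: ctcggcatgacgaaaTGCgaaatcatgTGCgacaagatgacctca
Cxcl12: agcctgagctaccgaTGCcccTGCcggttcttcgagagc
Cxcl14: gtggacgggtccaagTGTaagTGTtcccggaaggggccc
Cxcl5: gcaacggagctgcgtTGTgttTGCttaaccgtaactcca
Ccl27a: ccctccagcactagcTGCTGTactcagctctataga
Ccl6: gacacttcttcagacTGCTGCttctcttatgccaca
Xcl1: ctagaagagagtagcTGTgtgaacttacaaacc
In Cx3cl1 the cysteine codons 32 and 36 enclose 3 others, in the CXC ligands they enclose 1, and in Ccl27a and Ccl6 they are adjacent. Xcl1 has a lone cysteine there. Each ligand was searched only for the motif of the class that its symbol names. All 34 ligand members held it, 20 the CC motif, 12 the CXC motif, 1 the CX3C motif and 1 the single cysteine. These counts thus follow the symbols and do not test the classes. Glutamate, leucine and arginine codons, the ELR motif of chemokines that draw neutrophils, stood before the CXC motif in 4 members, Cxcl1, Cxcl2, Cxcl3 and Cxcl5, and of these only Cxcl5 had a base mean of 10 or more.

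The family as a whole lay low in the tissue. The median base mean of the 54 members was 6.22, against 247 over all genes above 0, and 5 members exceeded that median of all genes. A base mean of at least 10 was reached by 22 members, 15 ligands and 7 receptors, which is 34.9% of the 63 rows with such a symbol, against 63.1% of all rows of the table. Another 20 members had a base mean from 1 to under 10, and 12 had one under 1. The 9 rows listed at 0 were the ligands Ccl21a, Ccl21b, Ccl21c, Ccl21d, Ccl27b and Cxcl15 and the receptors Ccr4, Ccr8 and Cxcr1, or 14.3% of the rows against 16.9% of the table. A count of 0 allows a base mean of up to 0.298. In bulk tissue, fewer cells of a type and less RNA per cell cannot be told apart.

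**Figure D1:**
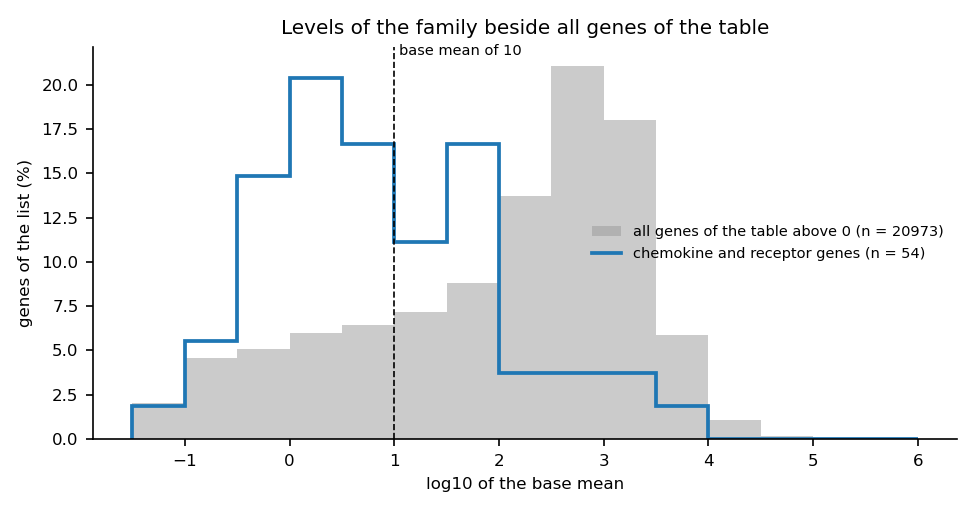
Share of genes (%) in steps of the log10 base mean, for all genes above 0 (grey, n = 20973) and for the 54 chemokine and chemokine receptor genes (blue line). The blue line lies mostly left of the grey, with 32 of the 54 members under a base mean of 10, marked by the dashed line.

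To compare genes with each other, base means were divided by the length of all annotated exons in kb. Exact Poisson intervals (95%) are given with these levels, and they cover counting error only, not the spread between mice. On this scale the median member stood at 3.05 per kb, against 63.5 per kb over all genes above 0. The levels were concentrated in few genes: the 5 highest members held 88.2% of the summed per-kb level of all 54. Together the 54 members made up 0.0496% of the summed base mean of the table.

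Cx3cl1 (fractalkine), a chemokine anchored in the membrane and released by cleavage, had the highest per-kb level of all members. Its base mean was 5623 and its level 1431 per kb (interval 1419 to 1443), which alone was 39.8% of the summed per-kb level of the family. In the whole table it ranked at place 575 per kb, with 97.6% of genes below it. The gene lies at chr8:94772009-94782427 on the plus strand.

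The next ligands were chemokines with homeostatic rather than inflammatory roles. Cxcl14, a chemokine of epithelia and of some neurons, had a base mean of 1174 and a level of 643 per kb (631 to 654). Ccl27a, known mainly as a skin chemokine that attracts T cells, had a base mean of 715 and a level of 301 per kb (294 to 308). Cxcl12, which retains stem cells and leukocytes and guides migrating neurons, had a base mean of 1576 but, with 8176 exon bases, a level of 193 per kb (190 to 196). These 4 ligands held 90.5% of the summed per-kb level of the ligands, and by all exons the counting interval of each was separate from that of the next. Below Cx3cl1 their order changed with the definition of length. By the longest curated transcript Ccl27a (850 per kb) passed Cxcl14 (643 per kb), and by coding length Cxcl12 (4414 per kb) passed Cxcl14 (3954 per kb) and Ccl27a (1453 per kb). By all exons, after Cxcl12 the levels dropped to 45.5 per kb, the level of Ccl3.

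The level of Ccl27a rests on a gene with near copies. A copy, Ccl27b, has a coding sequence of the same 360 bases that differs at 3 positions (99.2% identical), and 26.5% of the 100-base windows of the Ccl27a transcripts also occur in the transcripts of other genes. The stretch around the first difference, coding bases 162 to 221, is shown with the differing base in capitals.
Ccl27a: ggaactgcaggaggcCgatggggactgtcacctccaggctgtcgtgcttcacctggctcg
Ccl27b: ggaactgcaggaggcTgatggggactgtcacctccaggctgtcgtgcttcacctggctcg
Ccl27b was listed at 0. Of its windows 97.9% occur in other genes, and only uniquely mapped reads had been counted. Ccl21a and Ccl21b, ligands that bring T cells and dendritic cells to lymph nodes, were also at 0, with 50.3% and 100% of their windows shared. Their coding sequences of 399 bases differ at 2 positions, of which the first is shown in coding bases 69 to 128.
Ccl21a: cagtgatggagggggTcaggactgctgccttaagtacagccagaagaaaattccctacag
Ccl21b: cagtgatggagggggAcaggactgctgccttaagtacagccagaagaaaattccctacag
The 0 of these genes is thus a statement about uniquely mapped reads, and how many reads were lost to shared sequence was not tested. Of the 54 members, 39 shared no window with another gene.

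Several CC ligands known from microglia and macrophages had a base mean of 10 or more. Ccl3 and Ccl4, inflammatory chemokines that draw monocytes and T cells, had levels of 45.5 per kb (40.9 to 50.5, base mean 34.9) and 21.3 per kb (17.9 to 25.1, base mean 14.1). Ccl6 and Ccl9, rodent chemokines that act on Ccr1, had levels of 42.8 per kb (39.9 to 46.0, base mean 76.9) and 19.7 per kb (18.2 to 21.4, base mean 60.1). The intervals of Ccl3 and Ccl6 overlapped, as did those of Ccl4, Ccl12 and Ccl9. Ccl12, a monocyte chemokine that acts on Ccr2, had a base mean of 10.8 and a level of 20.1 per kb (16.5 to 24.2). Ccl22, a macrophage and dendritic cell product that draws regulatory T cells, had a base mean of 11.2 and a level of 4.83 per kb (3.98 to 5.81).

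Several of these genes are neighbours on chromosome 11. In the stretch chr11:83525778-83664683, which holds Ccl5, Ccl9, Ccl6, Ccl3 and Ccl4, 4 of 5 members had a base mean of at least 10, and the lowest was Ccl5 with 7.87. In the other CC stretch of the same chromosome, chr11:82035571-82305690 with Ccl2, Ccl7, Ccl11, Ccl12, Ccl8 and Ccl1, 1 of 6 did. There Ccl12 had the highest base mean, 10.8, and Ccl2, the best known monocyte chemokine, had 5.87 or 5.16 per kb (3.93 to 6.65). Over the genome, 39 of the rows lay within 500 kb of another in 9 such stretches, and 11 of their 34 members had a base mean of 10 or more.

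Cxcl16, a membrane-bound chemokine and scavenger receptor, had a base mean of 94.9 and a level of 31.4 per kb (29.5 to 33.5). Ccl25, the thymus and gut chemokine, had a base mean of 92.1 and a level of 12.4 per kb, and Ccl28, a mucosal chemokine, had 43.5 and 8.97 per kb. Cxcl10, an interferon-induced ligand of Cxcr3, had a base mean of 25.1 and a level of 11.1 per kb. Cxcl9 and Cxcl11, also known as ligands of Cxcr3, were at 0.729 and 0.789 per kb. Cxcl11 is annotated as a polymorphic pseudogene rather than as protein coding, and stays a ligand member by its symbol only. Of its exon bases 41.7% overlap Gm2673 on the opposite strand, and 39.1% of its windows also occur there. Whether its reads stem from Gm2673 or code for a working ligand was not tested. Cxcl5, the ELR chemokine mentioned above, had a base mean of 11.4 and a level of 6.13 per kb.

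**Figure D2:**
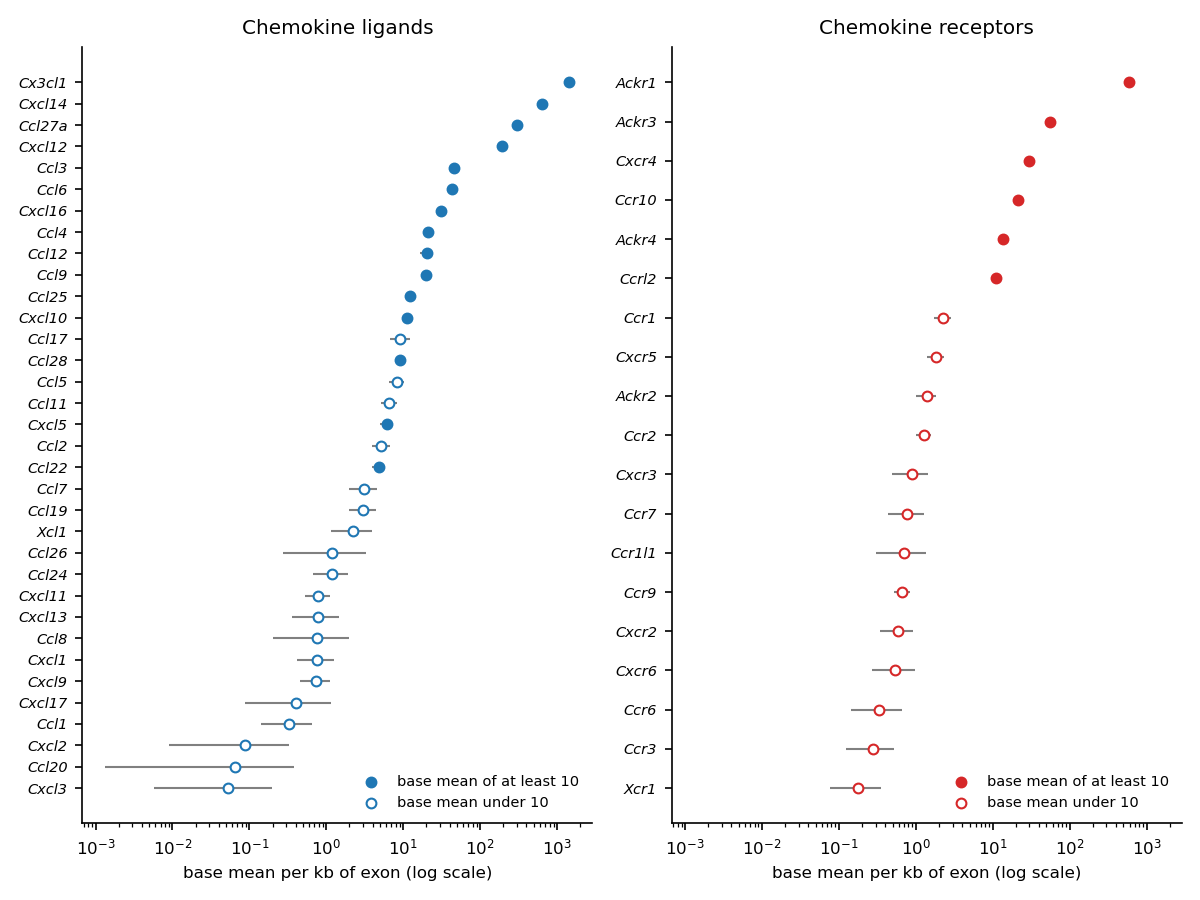
Base mean per kb of exon (log scale) for the 34 ligands and 19 of the 20 receptors, pooled over 10 libraries. Bars are exact Poisson 95% counting intervals, and filled points have a base mean of at least 10. Cx3cl1 (1431 per kb) and Ackr1 (599 per kb) head the 2 groups, and the bars widen toward the lowest genes.

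By class, the CC ligands had the higher median level, as a description without a test. Of 20 CC ligand members 9 had a base mean of at least 10, and the median of the 20 was 7.39 per kb. Of 12 CXC ligand members 5 did, and the median of the 12 was 0.784 per kb. These 12 include Cxcl11, the polymorphic pseudogene named above. Without division by length the medians lay closer, at base means of 7.50 and 2.60. Along the order of the ligands, 26 of the 33 neighbouring pairs had overlapping intervals, so that much of the order below Cxcl12 is not resolved even by counting error.

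The stretch around the Asp-Arg-Tyr motif at the inner end of the third membrane passage, which receptors use to engage G proteins, is shown for 4 receptors because not every receptor holds it. The capitals mark the codons at this place.
Cxcr4: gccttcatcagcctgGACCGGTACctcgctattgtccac
Ackr3: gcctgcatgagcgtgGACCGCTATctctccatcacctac
Ackr2: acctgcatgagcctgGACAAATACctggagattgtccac
Cxcr6: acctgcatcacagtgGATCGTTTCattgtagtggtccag
The motif was found in 15 of the 20 receptor members. It was not found in the atypical receptors Ackr1, Ackr2 and Ccrl2, nor in Cxcr6 and Xcr1, and Ackr3 and Ackr4 held it.

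Among the 20 receptor members, the atypical receptors Ackr1 and Ackr3 led the order by all exons. The fractalkine receptor Cx3cr1, outside the choice by symbol, lay between them at 284 per kb, with a base mean of 1278. The 5 atypical receptors, Ackr1 to Ackr4 and Ccrl2, had a median of 13.4 per kb. It was 0.778 per kb for the 9 CC receptor members and 0.880 per kb for the 5 CXC receptor members. Cxcr4 (29.6 per kb) and Ccr10 (21.1 per kb) stood above the median of the atypical receptors. Of the atypical receptors 4 had a base mean of at least 10, and Cxcr4 was the only CXC receptor that did.

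Ackr1 (the Duffy antigen receptor), found on red blood cells, venules and some neurons, had a base mean of 842 and a level of 599 per kb (586 to 612). That was 79.4% of the summed per-kb level of the receptor members, a sum that leaves out Cx3cr1 (284 per kb). Its exons overlap on the same strand with those of Cadm3, a neuronal adhesion gene with a base mean of 8460, about 10.1 times that of Ackr1. The overlap covers 361 of the 1405 exon bases of Ackr1 (25.7%), and the share of its reads that stem from Cadm3 was not tested. The hemoglobin genes Hba-a1, Hba-a2, Hbb-bs and Hbb-bt were listed at 0, and Alas2, the heme synthesis enzyme of erythroid cells, had a base mean of 137. Only uniquely mapped reads had been counted, and sequence shared among the hemoglobin genes was not examined. Their 0 therefore does not show that red blood cell RNA was absent.

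Ackr3, a scavenger of Cxcl12, had a base mean of 185 and a level of 55.2 per kb (52.7 to 57.8). Without Ackr1 it held 35.4% of the remaining level of the receptor members. Cxcr4, the signalling receptor of Cxcl12, followed with a base mean of 53.5 and a level of 29.6 per kb (27.1 to 32.2), or 19.0% of that remainder. Ccr10, the receptor of Ccl27 and Ccl28, had a base mean of 36.4 and a level of 21.1 per kb (19.0 to 23.4). These intervals were separate from one another. Ccr10 lies within the span of Cntnap1 on the opposite strand (base mean 7962) without a shared exon base.

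Ackr4, which scavenges Ccl19, Ccl21 and Ccl25, had a base mean of 72.2 and a level of 13.4 per kb (12.5 to 14.4), and Ccrl2, which presents chemerin and does not signal, had 28.9 and 11.1 per kb (9.90 to 12.5). The intervals of both overlapped. By the longest curated transcript Ackr4 (30.2 per kb) stood slightly above Cxcr4 (29.6 per kb). By coding length Ackr4 (68.8 per kb) passed Cxcr4 (49.7 per kb) more clearly. Below Ccrl2 the receptors dropped to Ccr1 at 2.26 per kb (1.74 to 2.88), and it and the receptors below it, 13 in all, had base means under 10. Ackr2, the scavenger of inflammatory CC chemokines, was the only atypical receptor among them, at 1.38 per kb with a base mean of 4.31.

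Ccr2, the receptor by which monocytes respond to Ccl2, Ccl7 and Ccl12, had a base mean of 8.55 and a level of 1.26 per kb (1.01 to 1.56). Its interval overlapped with that of Ackr2.

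Setting ligands beside receptors they are known to bind, from a fixed list, gave 42 pairs. The list does not hold every known pair, as it sets Ackr1 and Ackr2 beside Ccl2 only, and the counts depend on it. Ligand and receptor both had a base mean of at least 10 in 8 pairs, the ligand alone in 10, the receptor alone in 6 and neither in 18. In the pair with the highest levels, Cx3cl1 at 1431 per kb stood beside Cx3cr1, the microglial receptor, at 284 per kb with a base mean of 1278. Cxcl12 at 193 per kb exceeded both Ackr3 (55.2 per kb) and Cxcr4 (29.6 per kb). Ccl27a at 301 per kb stood above Ccr10 at 21.1 per kb, while Ccl28 at 8.97 per kb stood below it. By coding length this last direction turned, with Ccl28 at 111 and Ccr10 at 33.5 per kb.

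In several of the 42 listed pairs the ligand had a base mean of 10 or more and the receptor did not. Cxcl16 stood at 31.4 per kb and its receptor Cxcr6 at 0.544 per kb. Ccl25 stood at 12.4 per kb and Ccr9 at 0.670 per kb, although Ackr4, which also binds Ccl25, was at 13.4 per kb. Ccl25 exceeded Ackr4 under both other definitions of length, at 87.0 against 30.2 per kb by the longest curated transcript and 213 against 68.8 per kb by coding length. Cxcl10 stood at 11.1 per kb and Cxcr3, the receptor of activated T cells, at 0.880 per kb, and Ccr4, the receptor of Ccl17 and Ccl22, was listed at 0. Beside these receptors of lymphocytes, the 5 T cell markers of a fixed list (Cd3d, Cd3e, Cd3g, Cd8a, Cd2) had base means from 1.19 to 2.73. Their part in the low receptor levels was not tested.

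**Figure D3:**
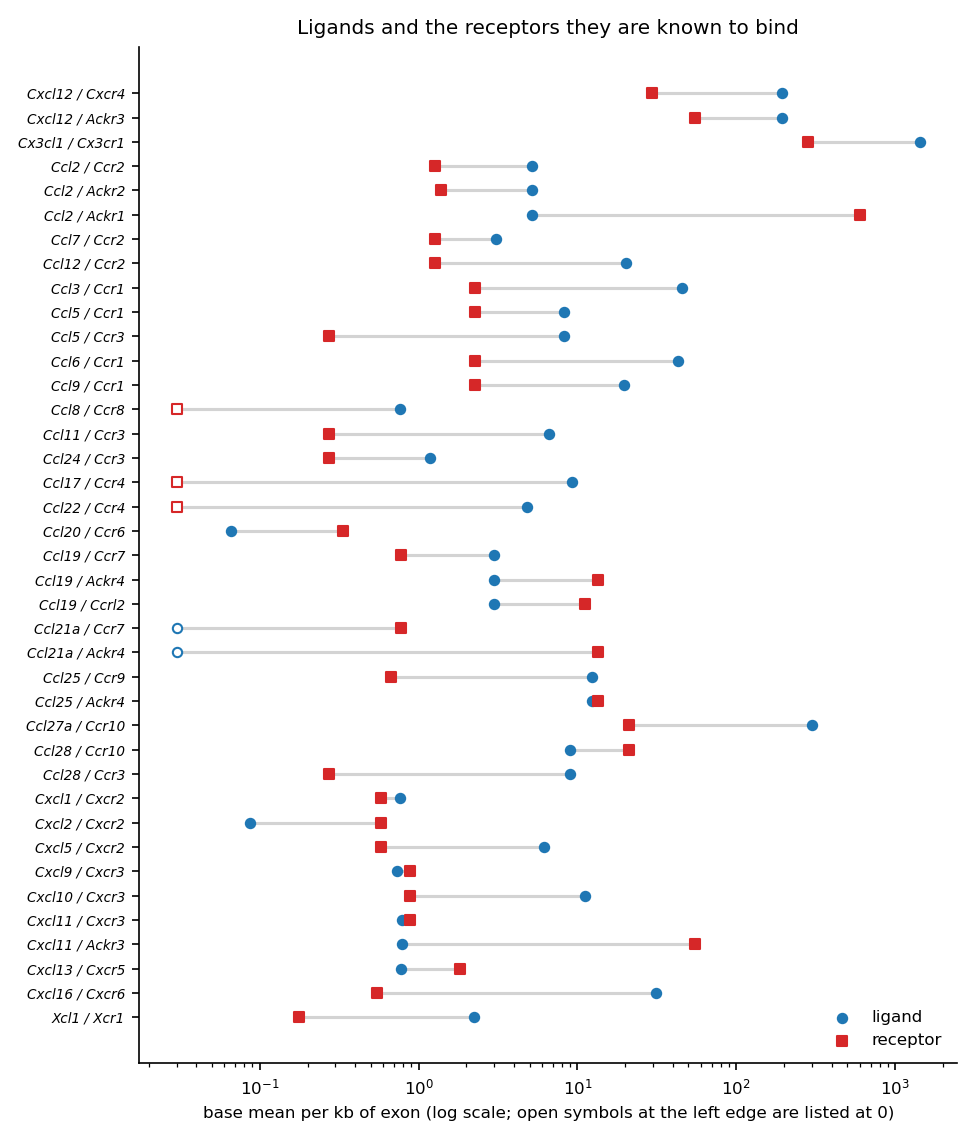
Base mean per kb of exon (log scale) of ligand (circle) and receptor (square) for 39 of the 42 pairs, pooled over 10 libraries. Open symbols at the left edge are genes listed at 0. Cx3cl1 with Cx3cr1 and Cxcl12 with Ackr3 and Cxcr4 lie at the right, whereas Ccl17 and Ccl22 stand beside a receptor listed at 0.

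Overlap with other genes touched several of these values. Exons of 10 members overlap those of another annotated gene, 6 of them with a base mean of at least 10. On the opposite strand, Ccl25 shares 204 exon bases with Elavl1 (base mean 1740), Ackr4 shares 479 with Acad11 (965), Cxcl16 shares 552 with Zmynd15 (46.9), Cxcl10 shares 133 with Art3 (286) and Ccl27a shares 8 with Il11ra1 (685). The libraries were stranded, but the strand setting of the counting is not given in the sources used here. How many reads of these members belong to the neighbour was not tested.

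Another definition of length moved many levels beyond their counting interval. Against the longest curated transcript, the levels of the 22 members with a base mean of at least 10 rose by a median factor of 1.11, and the largest factor was 7.04, for Ccl25. Against coding length the median factor was 4.77 and the largest 22.9, for Cxcl12. Among the members, which leave out Cx3cr1, Cx3cl1 stayed the highest ligand and Ackr1 the highest receptor under both of these lengths. Each time 4 of the 5 highest ligands and 4 of the 5 highest receptors were shared with the order by all exons. Coding length was that of the longest curated transcript, with 357 bases for Cxcl12 and 492 for Ccl27a. The coding sequences behind the printed stretches had 279 and 360 bases. Levels by those were not computed, so the first place of Cx3cl1 by coding length holds for the curated transcripts only.

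**Figure D4:**
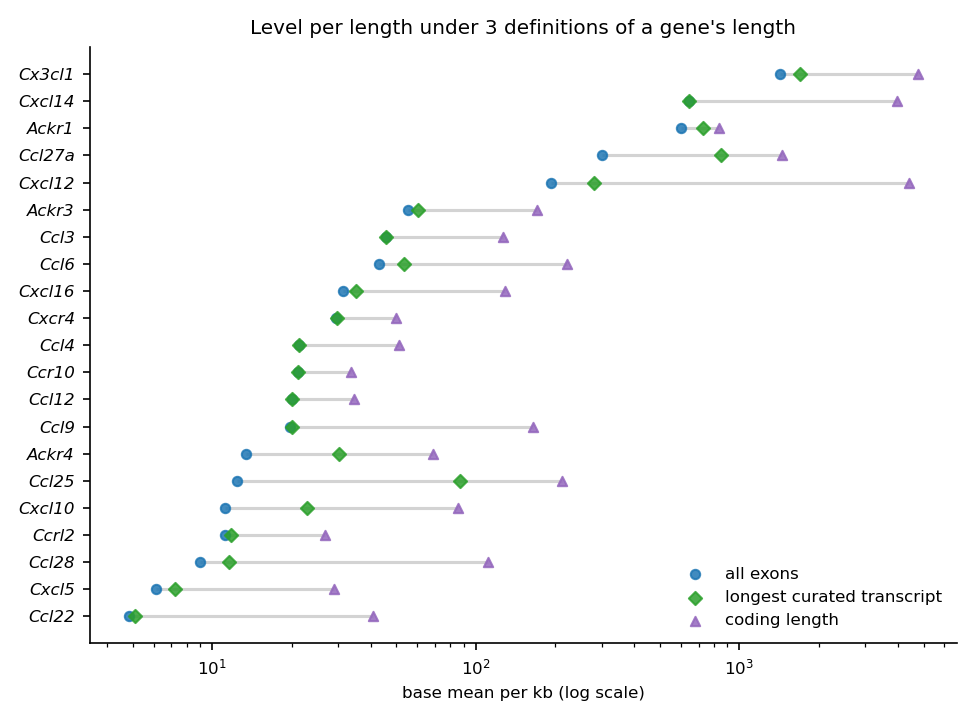
Base mean per kb (log scale) of 21 of the 22 members with a base mean of at least 10, by all annotated exons (circles), the longest curated transcript (diamonds) and coding length (triangles). The coding length gives the highest level for each gene, and for Cxcl12 the level goes from 193 to 4414 per kb.

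For the lowest genes, whole reads could be recovered from the base mean. The smallest base means of the table fall on 10 distinct values, the worth of 1 read in each of the 10 libraries, which ranged from 0.0868 to 0.119. All 19 members with a base mean under 2 were explained by exactly 1 set of reads per library. The libraries carry no names in this recovery and were assigned to no mouse or genotype.

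Cxcr2, the neutrophil receptor of the ELR chemokines, rested on 18 reads in 7 libraries, and its ligand Cxcl1 on 14 reads in 7 libraries. Cxcr3, the receptor of Cxcl10, rested on 15 reads in 7 libraries, and Cxcr6 on 11 reads in 6 libraries with 4 in a single library. Thus these receptors were not at 0, but no library held more than 4 reads of any of these genes. Ccr3, a receptor of Ccl5 and Ccl28, was less even, with 9 reads of which 4 and 3 came from a pair of libraries. The B cell chemokine Cxcl13 had 5 of its 9 reads in 1 library and reads in 4 libraries in all. At the lower end, Ccl26 and Cxcl17 had 3 reads each, Cxcl2 and Cxcl3 had 2 each, and Ccl20, the ligand of Ccr6, had 1. In all 5 of these, no library had more than 1 read.

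**Figure D5:**
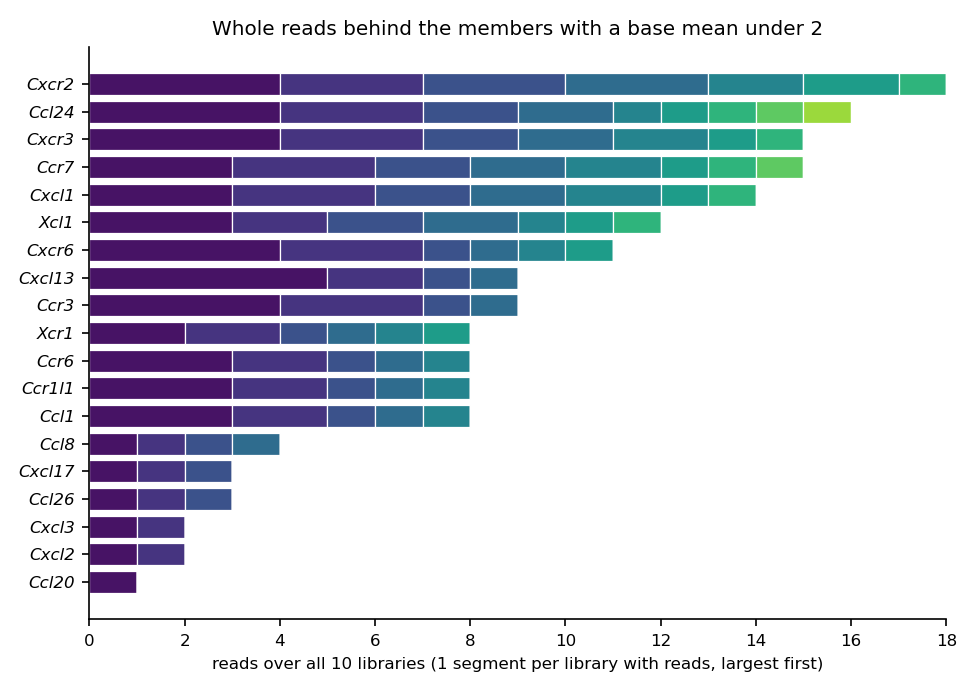
Whole reads summed over the 10 libraries for the 19 members with a base mean under 2, each bar split into 1 segment per library with reads, from most to fewest. Totals run from 18 reads (Cxcr2) to 1 read (Ccl20), and Cxcl13 has 5 of its 9 reads in 1 library.

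Family genes outside the choice by symbol, 9 on a fixed list, were also present. Pf4, which doubles as a marker of border macrophages, had a base mean of 10.6 and a level of 14.7 per kb, and Ppbp had 6.97 and 6.44 per kb. Of the chemerin system, the ligand Rarres2 was at 138 per kb and its signalling receptor Cmklr1 at 43.0 per kb, beside Ccrl2 at 11.1 per kb. Mif, a cytokine that also binds Cxcr4, stood at 2745 per kb. Besides Cx3cr1, given above, the list also held Pitpnm3 at 169 per kb (base mean 1660), Cklf at 11.3 per kb (69.1) and Gpr182 at 8.95 per kb (35.4).

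Genes that act downstream of the receptors or process the ligands were present in nearly all cases. Of 33 such genes on a fixed list, 32 had a base mean of at least 10, and the exception was Rgs1, a brake on G protein signalling, with 9.06. The sheddases that release Cx3cl1 from the membrane, Adam10 and Adam17, stood at 411 and 101 per kb. Many of these genes act downstream of receptors of other families as well.

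The labelled tissue was checked against marker lists. Markers of neurons (lowest base mean 3498), oligodendrocytes (5348), astrocytes (1944) and endothelial cells (446) were all high, the 6 microglial markers lay between 111 and 3075, and the 4 motor neuron markers between 37.3 and 2316. Markers of border macrophages lay between 10.6 and 76.8, those of meningeal fibroblasts between 67.3 and 1255 and those of sensory ganglion neurons between 14.9 and 86.9. B cell markers lay between 4.33 and 10.6 and neutrophil markers between 0.580 and 61.4. The part of each cell type in the levels of the chemokine genes was not tested.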

How the data were processed

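Spinal cord RNA from 5 SOD1 G93A and 5 WT females was prepared with a stranded mRNA kit and sequenced in pairs. Per the methods and the submitters' notes, the authors filtered reads with Fastp, aligned them to mm10 with HISAT2 2.1.0, counted uniquely mapped reads with featureCounts 2.0.2 and ran DESeq2. The gene annotation and the strand setting of the counting are not given in the sources used here. The authors deposited 1 table for the series. Its base mean, the only column used, is a signal per gene, the authors' mean of counts divided by size factors over all 10 libraries. The other columns hold the authors' own comparison of the genotypes (log2 fold change, standard error, Wald statistic, p-value and adjusted p-value) and were not used, so no test was made.

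Members were found by symbol, and those at 0 were left out. Every member with a base mean of at least 10 was named. Others were named as partner of a named gene, as a near copy, for resting on at most 3 reads, or, chosen after their values were seen, as a pathway or neighbouring gene. Of the members, 1 is counted in the totals but not reported here. Members and lists were chosen with earlier results of these data known. Lengths, coordinates and coding sequences came from GENCODE M21 (GRCm38), in place of the RefSeq transcripts first planned. Of 25232 genes, 24310 (96.3%) matched 1 GENCODE gene by symbol, all 54 members among them.

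The depth of single libraries is unknown, but the size factors recovered from the worth of 1 read ran from 0.84 to 1.15. Reads were recovered under a base mean of 2 to a tolerance of 1e-09, with at most 20 reads. On simulated data, 99.5% of 1277 low genes came out right. Of the 2451 genes of the table with a base mean above 0 and under 1, 2450 were explained by exactly 1 set of reads. Poisson intervals (95%) used reads estimated from the base mean. They and the limit at 0 (3 counts) cover counting error only. Windows of 100 bases were compared between transcripts of different genes. Python 3.11.15, numpy 2.4.6, pandas 2.3.3, scipy 1.17.1 and matplotlib 3.10.9 were used. Alternatives were other level minimums, length definitions, the choice of rows and, added after seeing the data, leaving out members whose exons overlap another gene.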

Additional observations from a re-analysis of the deposited data

How the results depend on the processing

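The number of members with a base mean of at least 10 was 22. It was 29 with a minimum of 5 and 13 with a minimum of 50. The median base mean of 6.22 fell to 2.99 with the rows at 0 included and to 4.52 without members whose exons overlap another gene, an alternative chosen after seeing the data. It was 6.88 with Cx3cr1, Pf4 and Ppbp and 6.22 without near-identical copies. The share of the 5 highest members in the summed level, 88.2%, was 90.4% without division by length and also without the members with overlap. With the longest curated transcript, 11 of the 22 members left their counting interval, and with coding length all 22 did.

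No paired analysis was possible because the table holds 1 mean per gene over all libraries. For the same reason leaving out replicates and any spread between mice could not be computed, and the levels cannot be divided between SOD1 G93A and WT mice. For genes with few reads, depth limits the order, and a count of 0 allows a base mean of up to 0.298.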
